A study of Mus musculus with 8 samples.

Results

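Liver sinusoidal endothelial cells (LSECs) of control mice are described here by their transcriptome alone, in the 4 samples whose labels give the genotype Ctrl, out of 8 samples in the series. The study asked how LSECs respond when β-catenin, which transmits canonical Wnt signals, is made constitutively active in them, and the other 4 samples carry that activating allele and are not used here. The controls were female C57BL/6J mice aged 2 months, called Ctnnb1WT by the study and wildtype in the sample descriptions. The labels do not say whether they carried a Cre transgene or a floxed Ctnnb1 allele. Each sample, called a pool in the following, holds cells from the livers of 2 mice, so that 8 mice stand behind the 4 pools and the spread given is that between pools, not between single mice. Livers were digested with collagenase, the cells were enriched on a density gradient and sorted with magnetic beads against CD146, and RNA was taken right after the isolation and hybridized to Affymetrix mouse gene arrays.

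LSECs line the capillaries of the liver lobule. They differ from endothelium elsewhere by open fenestrae, by the absence of a continuous basement membrane and by a strong capacity for receptor-mediated uptake of waste molecules, and the transcription factor Gata4 is known as a driver of this differentiation. Their surface carries scavenger receptors such as Stab1, Stab2 and Mrc1, and the cells secrete angiocrine factors, among them Wnt2, Rspo3 and Bmp2, which act on neighbouring hepatocytes.

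The table held 25428 rows of log2 values after robust multiarray analysis (RMA), 1 row per gene of a custom chip definition, and 25269 of them could be named. Quantile normalization gave the 4 arrays the same distribution, with a median of 4.20 in each and values from 1.53 to 13.41. Background was read from 1088 rows of olfactory receptors, genes that are not known to act in endothelium, and the floor was set at the 95th percentile of their control means, 3.69 on the log2 scale. Above this floor in all 4 pools lay 13535 rows, which is 53.2% of all rows. That share is the background for every count of genes above the floor in the text. The pools correlated across rows with r from 0.983 to 0.992, where rows are not independent replicates, and no pair of arrays held identical values (0 pairs). Pool 3 had the lowest of these, with r of 0.983, 0.986 and 0.983 against pools 1, 2 and 4. Wherever 4 values follow a gene name in the text, they are log2 values of pools 1, 2, 3 and 4.

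Rows were ranked by the mean of the 4 pools, and a percentile is the share of rows with a lower mean. A rank on an array is a rank of signal, since the affinity and the number of a gene's probes enter it, and it is not a rank of transcript number. Gapdh, a glycolytic enzyme gene that is active in all cells, had 1.89, 2.85, 2.65 and 2.79, at percentile 15.5. The sequence of mmu-miR-126a-3p, the microRNA that endothelial cells are known for, is given because its row shows the same limit, with bases 2 to 8 (the seed) in capitals (RefSeq, GRCm38.p6, chr2:26591402-26591423, plus strand).
mmu-miR-126a-3p: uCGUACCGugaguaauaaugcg
The row of its gene Mir126a had 3.55, 3.40, 3.78 and 3.01, at percentile 37.5 and above the floor in pool 3 alone. Egfl7, the gene that hosts it, had 10.68, 10.53, 10.74 and 10.46 at percentile 98.9. The array row covers the microRNA gene and is not a measurement of the mature molecule of 22 bases.

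The 5 markers by which the cells were to be recognized were all among the highest signals. Clec4g, a C-type lectin of sinusoidal endothelium (Entrez gene 75863), had 12.92, 12.87, 12.87 and 12.87, and its mean of 12.88 ± 0.03 (SD, n = 4) ranked 3 of 25428. Kdr, the main VEGF receptor (16542), had 12.60, 12.67, 12.60 and 12.60, a mean of 12.62 ± 0.03 (SD, n = 4), and ranked 14. Both were nearly equal in the 4 pools. Stab2, a hyaluronan and scavenger receptor (192188), had 12.29, 12.19, 12.23 and 12, a mean of 12.18 ± 0.13 (SD, n = 4), and ranked 29. Lyve1, a hyaluronan receptor of sinusoidal and lymphatic endothelium (114332), had 11.84, 11.94, 12.64 and 12.24, a mean of 12.16 ± 0.36 (SD, n = 4), and ranked 32. Gata4 (14463) had 10.27, 10.41, 10.51 and 10.55, a mean of 10.44 ± 0.12 (SD, n = 4), and ranked 344. No marker went against the labelled cell type in any pool.

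The markers differed in their spread. Clec4g and Kdr varied by 0.05 and 0.07 between the highest and the lowest pool, while Lyve1 varied by 0.80 and was highest in pool 3. Among the rows nearest to it in mean, up to 200 in number, Lyve1 had a larger SD than 96.2%, Gata4 than 47% and Clec4g than 3.92%. Near the top of the distribution quantile normalization itself limits the spread, since an array can differ there only by the order of its rows.

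The promoter of Clec4g is shown because the gene had the smallest spread of the 5 markers and because its regulatory sequence drives the recombinase with which the study targeted LSECs. It runs from 250 bases before to 50 bases after the annotated start, 5′ to 3′ along the gene (RefSeq, GRCm38.p6, chr8:3720602-3720901, minus strand).
Clec4g promoter: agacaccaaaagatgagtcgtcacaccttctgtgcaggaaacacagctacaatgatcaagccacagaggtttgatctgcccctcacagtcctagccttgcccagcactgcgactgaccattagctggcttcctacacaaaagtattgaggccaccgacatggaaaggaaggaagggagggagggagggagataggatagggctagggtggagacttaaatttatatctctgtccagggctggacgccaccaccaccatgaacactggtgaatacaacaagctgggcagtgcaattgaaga
The GATA letters AGATAA and TGATAA, searched on both strands, were in 0 of the 3 marker promoters at hand, those of Clec4g, Stab2 and Kdr, and in 18.6% of all 32851 promoters of this length. Other forms of the GATA letters were not searched, and the Clec4g window shown holds AGATAG. The count thus does not mean that these promoters lack GATA sites. The windows of Lyve1 and Gata4 were not searched.

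Of the 20 named rows with the highest control means, 17 were protein-coding and 9 belonged to an endothelial list. The highest row of all was Rn18s-rs5, annotated as a pseudogene, with a mean of 13.405. Ehd3, a gene of endocytic recycling, had 12.99, 12.98, 12.92 and 12.98 and was the highest protein-coding row. B2m, the light chain of class I molecules, had 12.84, 12.92, 12.84 and 12.92. Genes outside the endothelial lists were among them too. Serinc3, a membrane protein that incorporates serine into lipids, had 12.69, 12.81, 12.98 and 12.77. Selenop, the carrier of selenium in plasma, had 12.81, 12.71, 12.77 and 12.84. Igfbp7, a secreted binding protein of vascular cells, had 12.76, 12.73, 12.67 and 12.81. These 3 rows differed by less than 0.30 between pools. Aqp1, a water channel of endothelium and red cells, had 12.73, 12.77, 12.75 and 12.69. Il6st, which encodes gp130, the shared receptor chain of the interleukin 6 family, had 12.40, 12.46, 12.48 and 12.51. The pseudogene row Gm3839 had 12.48, 12.58, 12.40 and 12.58, and an array does not resolve a pseudogene from a gene with the same probe sequences.

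The detection of a row depended on the class of its gene. Of 20232 protein-coding rows 12244 were above the floor in all pools (60.5%), against 612 of 3059 lncRNA rows (20.007%) and 96 of 534 microRNA gene rows (18.0%). Small nucleolar RNA rows were above it in 82 of 107 cases (76.6%).

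Genes listed for sinusoidal identity mostly ranked near the top. The list includes the markers Clec4g, Stab2 and Lyve1, and some members, such as Lyve1 and Flt4, are genes of other endothelium too. Of 17 genes in the list of sinusoidal identity, 17 lay above the floor in all pools, 16 were in the top 5% of rows and 14 in the top 1%, against a background of 53.2% of all rows above the floor and, by construction, 5% in the top 5%. Their median percentile was 99.9. Oit3, a secreted protein of LSECs, had 12.67, 12.69, 12.81 and 12.71. Fcgr2b, the inhibitory receptor of immune complexes, had 12.77, 12.64, 12.69 and 12.75. Dnase1l3, a secreted DNase, had 12.58, 12.51, 12.51 and 12.55. None of the 17 genes (0) had a range over 1 between pools, against 6.27% of all rows. That share is the background for every such count in the text. Among the 254 rows of the top 1% of means, where 14 of the 17 lay, 3 had a range over 1. The median range was 0.26 in those 254 rows and 0.21 in the list, so most of this evenness was that of high signals in general. F8, coagulation factor VIII, had 12.31, 12.33, 12.33 and 12.28. Clec1b, a lectin that platelets carry too, was among the wider members with 10.12, 9.86, 10.49 and 9.72. The lowest member was Cd209b, a lectin of sinusoids, with 6.75, 6.91, 6.69 and 6.61 at percentile 74.6. The mean of the list differed by 0.12 between the highest and the lowest pool, and by 0.06 without pool 3 or without pool 4.

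Genes of endothelium in general were similarly placed. All 24 measured genes of this list, which holds the marker Kdr, were above the floor in all pools and 22 were in the top 5%. A range over 1 was found in 0 of them, against 3 of the 254 rows in the top 1% of means, where 14 of the 24 lay. Eng, a co-receptor of BMP ligands, had 12.64, 12.60, 12.71 and 12.64. The junction gene Cdh5, which encodes VE-cadherin, had 12.51, 12.48, 12.46 and 12.40. The phosphatase gene Ptprb had 12.55, 12.55, 12.58 and 12.46. Most of the list was highest in pool 3 (17 of 24 genes), by small amounts. The list mean lay 0.16 above the 4-pool mean in pool 3, and the difference between the highest and the lowest pool was 0.25, or 0.09 without pool 3. S1pr1, a sphingosine phosphate receptor, was the widest of the list with 9.18, 9.56, 10.10 and 9.48. Mcam, which encodes CD146, the antigen of the beads, had 8.76, 9.24, 9.54 and 9.06 at percentile 95. It was lowest in pool 1 and highest in pool 3, as were S1pr1 and Nos3, the endothelial nitric oxide synthase, with 8.51, 8.83, 9.14 and 8.89.

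**Figure D1:**
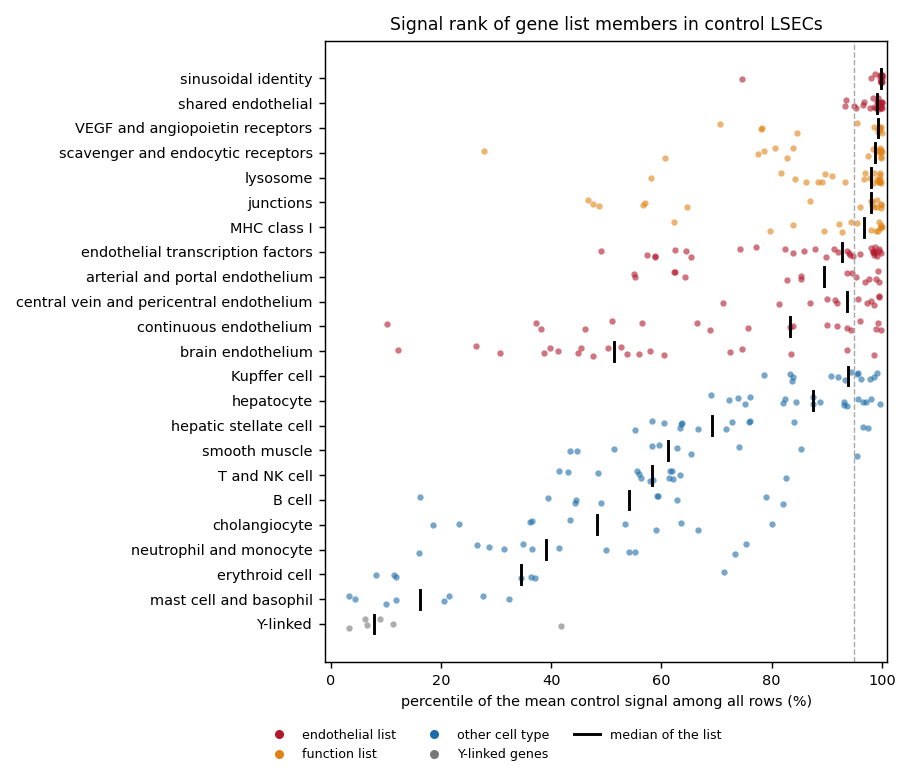
Percentile of the mean control signal among all 25428 rows (horizontal axis, %) for the members of 23 gene lists (points), with the list median as a black bar and the top 5% to the right of the dashed line. Sinusoidal and general endothelial genes lie at the right edge, with list medians at percentiles 99.9 and 99.2, while mast cell and Y-linked genes lie at the left with medians of 16.2 and 7.75.

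Of 32 transcription factors tied to endothelial identity, 32 were above the floor in all pools and 12 in the top 5%. Maf, which is known to act in sinusoidal differentiation, had 11.82, 11.96, 11.78 and 11.76. Ets2, a factor of the ETS family, had 11.41, 11.28, 11.15 and 11.23. Epas1, which encodes a hypoxia-inducible factor, had 11.08, 11.17, 11.27 and 11.04. These factors differed by less than 0.30 between pools. The venous factor Nr2f2 had 8.86, 8.95, 9.25 and 8.97. The shear-responsive factor Klf2 had 9.36, 9.13, 9.62 and 9.57. The factor with the lowest mean was Heyl, a Notch target, with 4.06, 4.28, 4.06 and 4.09. Sox7, an endothelial SOX factor, was lowest in pool 1 and highest in pool 3 with 7.64, 8.17, 8.62 and 7.997. Gata6, a relative of Gata4, was at percentile 58.9 with 4.86, 5.65, 4.39 and 5.31, and its range of 1.26 was the only one over 1 in this list.

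In the lists of other endothelial beds fewer genes were in the top 5% and more had a range over 1. In the list of continuous endothelium 15 of 19 genes were above the floor in all pools, 4 were in the top 5% and 5 had a range over 1. Ly6a, a surface antigen of many endothelial and progenitor cells, had 11.92, 12.26, 11.68 and 12.07. Plvap, the diaphragm protein of fenestrae, had 10.30, 10.70, 10.50 and 10.998. Apln, an angiogenic peptide, was below the floor in every pool with 3.22, 3.59, 3.49 and 3.37. Of the 20 genes of brain endothelium 12 were above the floor in all pools (60%), near the 53.2% of all rows and the 60.5% of protein-coding rows. The count was 6 of 20 where the floor was set at the 99th percentile of olfactory receptor rows or 7 of 20 at the median of all rows. The list median was at percentile 51.4. Cldn5, a tight junction gene of the blood-brain barrier, was an exception among them with 10.46, 10.41, 10.32 and 10.17. Mfsd2a, a lipid transporter of that barrier, exceeded the floor in pool 3 alone with 3.28, 3.18, 3.93 and 3.57. Of 8 lymphatic genes 8 were above the floor, but several belong to other lists as well. Lyve1 and Flt4 are sinusoidal identity genes, Nrp2 is in the VEGF receptor list and Reln in the stellate cell list. Prox1, the lymphatic master regulator, had 4.68, 5.04, 4.58 and 5.29 at percentile 57.4. In pools 1 and 3 it was below the higher floor, 4.72 at the 99th percentile of olfactory receptor rows.

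Genes of both ends of the sinusoid, portal and central, were measurable. The portal and arterial list had 16 of 16 genes above the floor and 6 in the top 5%. Ltbp4, a TGF-β binding matrix protein, had 11.12, 11.28, 11.29 and 11.16. The Notch ligand Dll4 had 9.92, 9.91, 10.05 and 9.76. The central list had 12 of 12 genes above the floor and 6 in the top 5%. Fabp4, a fatty acid binding protein, had 10.997, 11.43, 11.48 and 11.34. The receptor tyrosine kinase gene Kit had 10.94, 10.89, 11.62 and 11.09. The Wnt ligand Wnt2, an angiocrine factor of central sinusoids, had 9.90, 9.90, 10.28 and 10.07. Both Kit and Wnt2 were highest in pool 3. Pools differed by more than 1 in 4 genes of each list. Adgrg6, an adhesion receptor, had 7.93, 8.49, 6.36 and 8.49 and was low in pool 3. Thbd, thrombomodulin, had 9.42, 9.58, 10.52 and 9.74 and was high in pool 3. Selp, the P-selectin, had 7.35, 8.48, 8.38 and 9.23 and was lowest in pool 1.

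Some genes of larger vessels were high in pools 2 and 4 together. Vwf, the von Willebrand factor, had 7.98, 9.45, 7.50 and 9.51, and pools 2 and 4 were both more than 1 above pools 1 and 3. Edn1, the vasoconstrictor endothelin 1, showed the same division with 5.99, 7.97, 5.69 and 7.79. Such a gap of pools 2 and 4 above the other pools was found in 25 rows in all (0.0983% of rows), with the reverse in 4. In bulk samples such as these pools, fewer cells of a type and less RNA per cell cannot be told apart. The smooth muscle genes Acta2 and Cnn1 were among the 25 rows, and the part of vessel wall cells in the values of Vwf and Edn1 was not tested.

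Many genes for uptake and degradation were in the top rows. Of 18 scavenger and endocytic receptors 17 were above the floor in all pools, 11 in the top 5% and 9 in the top 1%. Mrc1, the mannose receptor, had 12.33, 12.24, 12.16 and 12.12. Fcgrt, the neonatal Fc receptor, had 12.14, 12.29, 12.14 and 12.16. Cd36, a receptor of fatty acids, had 11.58, 11.67, 11.56 and 11.78. These receptors differed by less than 0.25 between pools. Marco, a macrophage receptor, was the widest of the list with 8.64, 7.33, 5.93 and 6.61. Olr1, the lectin-like receptor of oxidized LDL, was below the floor in every pool with 2.93, 2.77, 3.21 and 3.13. The clathrin and early endosome list had 20 of 20 genes above the floor and 0 with a range over 1. Its adaptor gene Dab2 had 11.18, 11.24, 11.12 and 11.23. The clathrin heavy chain gene Cltc had 11.12, 11.10, 10.79 and 10.94.

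Of 24 lysosomal genes 24 were above the floor, 15 in the top 5% and 10 in the top 1%. Cathepsin B (Ctsb), a cysteine protease, had 12.26, 12.37, 12.28 and 12.37. The membrane protein gene Lamp1 had 11.58, 11.41, 11.57 and 11.25. The saposin precursor gene Psap had 11.50, 11.52, 11.68 and 11.60. The list mean differed by 0.10 between the highest and the lowest pool, or 0.05 without pool 3. Cathepsin H (Ctsh) was the widest lysosomal gene with 7.88, 8.27, 6.50 and 8.14, lowest in pool 3.

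Most receptors of angiogenic ligands were among the top rows. The list of VEGF and angiopoietin receptors also holds the ligands Angpt2, Vegfa, Vegfb and Vegfc. Of its 13 genes 13 were above the floor and 9 in the top 5%. The ligands were outside the top 5%, from percentile 70.65 for Vegfa to 84.7 for Vegfb. Nrp1, a co-receptor of VEGF, had 11.96, 12.02, 11.72 and 11.92. Flt4, the receptor of VEGF-C, had 11.64, 11.74, 11.75 and 11.56. Tek, the angiopoietin receptor, had 11.45, 11.57, 11.58 and 11.67. The widest of the list was the ligand Vegfc with 7.12, 7.26, 6.38 and 7.60, lowest in pool 3. In the BMP and TGF-β list 19 of 20 genes were above the floor and 0 had a range over 1. Bmpr2, the type II BMP receptor, had 10.47, 10.55, 10.71 and 10.21 at percentile 98.7. Bmpr1a, a type I receptor, had 4.58, 4.74, 3.83 and 4.77 at percentile 53.4 and was the widest of the list, lowest in pool 3. Bmp2, which controls hepcidin in hepatocytes, had 11.52, 11.53, 11.81 and 11.37. Bmp6, which acts in the same circuit, had 10.63, 10.32, 10.46 and 10.21. Tmem100, a BMP target of other endothelia, was below the floor in every pool with 2.75, 2.93, 2.50 and 2.77.

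Of 20 angiocrine factors 19 were above the floor and 9 in the top 5%, while 6 had a range over 1. Rspo3, which amplifies Wnt signals around the central vein, had 8.91, 9.35, 9.19 and 9.77. Hgf, the hepatocyte growth factor, had 9.71, 9.24, 10.27 and 9.56. Both differed by close to 1 between pools. Cxcl12, a chemokine, had 8.72, 7.59, 6.16 and 8.76, a range of 2.60. Igf1, the insulin-like growth factor, had 7.98, 7.38, 5.77 and 7.64. Pool 3 was lowest for both, by more than 1 from the nearest other pool, and it was lowest for stellate cell genes as well, whose values are given further on; their part in these values was not tested.

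Genes of the Wnt pathway, which the study set out to activate, had mostly detectable signals in the controls. Ctnnb1, the gene of β-catenin, had 10.36, 10.49, 9.90 and 10.38, a mean of 10.28 ± 0.26 (SD, n = 4), and was lowest in pool 3. Fzd4, an endothelial Frizzled receptor, had 10.14, 10.34, 10.76 and 10.33. The co-receptor gene Lrp6 had 10.38, 10.46, 10.36 and 10.23. Of 20 genes in this list 18 were above the floor in all pools and 6 in the top 5%. Tcf7l1, a repressive transcription factor of the pathway, had 9.10, 9.55, 10.18 and 9.45, lowest in pool 1 and highest in pool 3. Axin2, a negative feedback target, had 4.99, 5.02, 5.70 and 5.23 at percentile 60.5. Lef1, a factor and target of the pathway, had 4.36, 4.08, 3.56 and 3.49 and was above the floor in pools 1 and 2 only. Lgr5, a receptor of R-spondins, was below the floor in every pool with 3.04, 2.88, 2.61 and 2.79. In the Notch list 14 of 16 genes were above the floor and 2 in the top 5%. Notch1, a receptor, had 9.86, 9.81, 10.08 and 9.55. Lfng, which modifies Notch receptors, had 8.81, 8.68, 9.61 and 8.78 and was high in pool 3. Hey2, an arterial target, exceeded the floor in pool 2 only, with 3.05, 3.85, 2.59 and 3.37.

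Of 17 vasoactive genes 15 were above the floor and 7 had a range over 1. Ece1, the endothelin-converting enzyme, had 11.05, 11.17, 11.002 and 11.36. Calcrl, the receptor of adrenomedullin, had 11.53, 11.47, 11.36 and 11.53. Both differed by less than 0.40 between pools. Ednrb, the endothelin receptor of endothelium, had 9.11, 9.24, 9.13 and 9.998 and was high in pool 4. Gucy1a1, a subunit of the nitric oxide receptor, had 6.13, 6.25, 3.83 and 6.30 and was low in pool 3. Of 17 genes of coagulation and fibrinolysis 16 were above the floor. F2r, a thrombin receptor, had 11.20, 11.20, 11.70 and 11.51. Pros1, protein S, had 10.50, 10.53, 10.80 and 10.57.

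Structural genes of the vessel were mostly high. Of 17 junction genes 16 were above the floor, 10 in the top 5% and 0 had a range over 1. Jam2, a junctional adhesion molecule, had 11.68, 11.69, 12.05 and 12.01. Tjp1, which encodes ZO-1, had 10.61, 10.81, 10.99 and 10.75. Jup, plakoglobin, had 8.86, 9.64, 9.66 and 9.41 and was lowest in pool 1. Ocln, occludin, had 3.83, 3.99, 3.82 and 4.40 at percentile 47.5. Of 16 caveolar and fenestral genes 15 were above the floor and 3 had a range over 1. Cdc42, a regulator of the actin cytoskeleton, had 11.76, 11.77, 11.64 and 11.73. Ehd2, which stabilizes caveolae, had 5.66, 6.94, 4.90 and 6.56. Myl9, a myosin light chain of contractile cells, had 5.57, 7.87, 6.03 and 6.75. The highest pool for both Ehd2 and Myl9 was pool 2, in which smooth muscle genes were highest too. The part of smooth muscle cells in these values was not tested. Of 14 genes of the basement membrane 14 were above the floor, and Sparc, a matrix protein, had 11.89, 12.13, 11.94 and 12.03. Lamb1, a laminin chain, had 6.04, 5.32, 4.34 and 5.27. Fn1, fibronectin, had 8.33, 7.67, 6.65 and 8.45. Both were lowest in pool 3.

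Genes of antigen presentation differed by class. The class I list had 16 of 16 genes above the floor, 9 in the top 5% and 0 with a range over 1, and its mean differed by 0.03 between the highest and the lowest pool (0.02 without pool 3). H2-D1, a class I heavy chain, had 12.02, 12.07, 12.13 and 12.23. The class II and costimulation list was lowest in pool 3 for 9 of 12 genes. H2-Ab1, a class II chain, had 9.999, 9.72, 8.02 and 9.74. H2-Aa, its partner, had 8.32, 8.15, 6.55 and 8.39. Cd74, the invariant chain, had 9.88, 10.02, 8.66 and 10.12. In pool 3 the mean of the 12 class II and costimulation genes lay -0.53 from the 4-pool mean, against deviations of 0.15 to 0.22 in the other pools. Pool 3 was also lowest for Kupffer and B cell genes, in 13 of 14 and 7 of 10 cases, and their part in the class II values was not tested.

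Of 19 interferon response genes 18 were above the floor and 1 had a range over 1. Bst2, tetherin, had 11.70, 11.65, 11.40 and 11.43. Ifi44, an interferon-induced gene, had 10.06, 10.40, 10.26 and 10.41. Isg15, a ubiquitin-like protein, had 5.73, 5.62, 4.90 and 5.73 and was low in pool 3. Of 13 Toll-like receptor genes and partners 11 were above the floor. Tlr4, the receptor of endotoxin, had 8.66, 8.74, 8.71 and 8.65. Its partner Ly96 had 10.86, 10.85, 11.18 and 10.60. Tlr3, a receptor of double-stranded RNA, had 9.32, 9.37, 9.47 and 9.30. Of 17 genes of chemokines and chemokine receptors 15 were above the floor and 7 had a range over 1. Cxcl16, a membrane-bound chemokine, had 10.98, 11.05, 10.96 and 11.12. Cxcl9, an interferon-induced one, had 10.26, 10.09, 10.18 and 10.36. Both differed by less than 0.30 between pools. Of 12 adhesion genes 10 were above the floor, and Vcam1, a ligand of leukocyte integrins, had 9.56, 9.21, 10.09 and 9.59. Sele, the E-selectin that is induced by inflammation, had 3.77, 4.71, 3.75 and 4.85, which is above the floor in each pool at percentile 51.

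Metabolic genes varied in spread. Of 18 genes of lipid uptake 16 were above the floor and 8 in the top 5%. Gpihbp1, the endothelial anchor of lipoprotein lipase, had 11.28, 11.27, 11.31 and 11.10 and was even between pools. Lpl, the lipase itself, which other cells than endothelium are known to make, had 8.36, 8.13, 4.83 and 7.65. Pool 3 was more than 2 below the nearest other pool for Lpl, as it was for the stellate gene Dcn. Most Kupffer cell genes were lowest in pool 3 as well, and the part of other cells in the Lpl values was not tested. Of 16 glycolytic genes 14 were above the floor, with Gpi1, an isomerase, at 10.88, 10.81, 10.92 and 10.81. Of 14 hypoxia response genes 12 were above the floor and 4 had a range over 1. Ddit4, an inhibitor of mTOR signaling, had 6.84, 7.93, 8.79 and 7.89, lowest in pool 1 and highest in pool 3. Of 11 genes of quiescence and senescence 11 were above the floor and 0 in the top 5%. Cdkn1a, the inhibitor p21, had 8.996, 9.31, 8.92 and 9.15.

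The spread between pools depended on signal. The median SD of a row was 0.16 over all rows, with 0.12 in the lowest decile of means, 0.22 in decile 6 and 0.13 in the top decile. A range over 1, meaning a 2-fold difference between the highest and the lowest pool, was found in 1595 of 25428 rows (6.27%), and in 1494 of 15694 rows above the floor in at least 1 pool (9.52%). The share was 14.3% in decile 6 and 4.25% in the top decile. Among the 1494 rows, pool 3 was the highest or the lowest in 1043, pool 1 in 711, pool 2 in 624 and pool 4 in 610. Without pool 3 the count was 735, and without pools 1, 2 and 4 in turn it was 1122, 1210 and 1216. A gap of over 1 from the nearest other pool was found in 389 rows (1.53%), of which pool 3 was the distant pool in 72 above and 158 below. Among the 2542 rows of the top decile, Rn18s-rs5, Il10rb and Ccser2 had the smallest SDs. Il10rb, a receptor chain of interleukin 10, had 10.17, 10.20, 10.19 and 10.18.

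**Figure D2:**
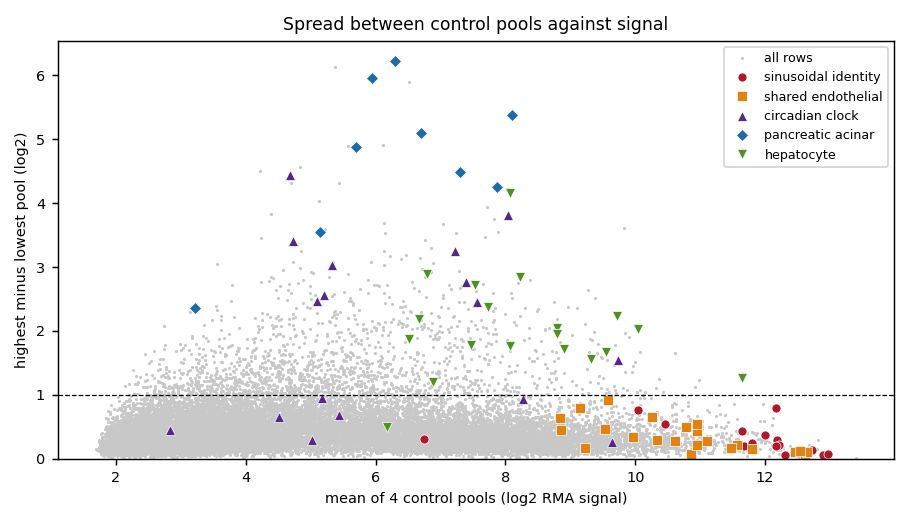
Range between the highest and the lowest of the 4 pools (vertical axis, log2) against the mean of the pools (horizontal axis, log2 RMA signal) for all rows (grey) and the members of 5 lists (colours), with the 2-fold line dashed. Sinusoidal identity and shared endothelial genes all stay below a range of 1, while acinar genes reach 6.23, clock genes 4.44 and hepatocyte genes 4.16. Most of the endothelial genes lie in the top 1% of means, where 3 of all 254 rows exceed a range of 1.

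Of the 20 named rows with the largest range, 9 belonged to a list of another cell type and 0 to an endothelial list. The widest were genes of the exocrine pancreas, 7 of the 20 from the acinar list. Pnlip, pancreatic lipase, had 9.13, 2.90, 4.78 and 8.41, a range of 6.23. Cel, the bile salt-dependent lipase, had 8.67, 2.71, 4.19 and 8.19. Ctrb1, chymotrypsinogen, had 10.23, 4.96, 6.86 and 10.35. In these genes pools 1 and 4 were high and pools 2 and 3 low. Reg1, a secreted acinar protein that is not in the list, had 8.72, 2.69, 2.59 and 7.50. Cpb1, a carboxypeptidase also outside the list, had 9.19, 3.29, 4.66 and 8.94. All 9 measured acinar genes had a range over 1, from 2.36 to 6.23, against 6.27% of all rows, and 4 of 9 were above the floor in all pools, or 8 of 9 without pool 2. The list mean was 8.52 in pool 1, 3.86 in pool 2, 4.93 in pool 3 and 7.71 in pool 4.

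Hepatocyte genes followed the same division of pools. Alb, albumin, was at percentile 99.7 with 12.08, 11.14, 11.03 and 12.29. Cyp2e1, a pericentral cytochrome, had 10.69, 8.46, 9.20 and 10.51. Apoa1, the main apolipoprotein of HDL, had 9.81, 7.77, 8.26 and 9.36. Each was higher in both pools 1 and 4 than in pools 2 and 3. Hamp, hepcidin, was the widest of the list with 8.59, 6.02, 7.46 and 10.18. Of 19 measured hepatocyte genes 19 were above the floor in all pools and 18 had a range over 1. The exception was Ass1, a urea cycle enzyme, with 5.89, 6.37, 6.39 and 6.04. The list mean was 8.86, 7.35, 7.64 and 9.18 in pools 1, 2, 3 and 4. Across the array 158 rows (0.621%) had both pools 1 and 4 more than 1 above both pools 2 and 3, among them 13 of the 19 hepatocyte and 8 of the 9 acinar genes, while 1 row had the reverse. None of the 17 sinusoidal and 24 shared endothelial genes was among the 158 (0 in each list). With 0.621% of all rows called, a count of 0 in lists of this size does not set them apart from other rows.

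Stellate cell genes were low in pool 3. Dcn, decorin, had 11.15, 9.85, 7.55 and 10.77. Lrat, the enzyme that stores vitamin A, had 8.26, 6.40, 5.19 and 7.68. Rgs5, a pericyte gene, had 8.92, 7.82, 5.44 and 8.54. Pool 3 was at least 1 below each other pool for all 3 genes. Of 14 genes 12 had a range over 1 and 12 were lowest in pool 3. The list mean was 7.03, 6.67, 5.34 and 7.07, and its difference between the highest and the lowest pool, 1.73, became 0.40 without pool 3. Ednra, an endothelin receptor of contractile cells, was lowest in the same pool with 7.43, 6.27, 4.26 and 6.93. Mesothelial genes, which mark the surface of the liver, were also lowest there in 6 of 7 cases, with Upk3b, an uroplakin, at 7.07, 6.51, 5.41 and 6.82.

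Kupffer cell genes were highest in pool 1 and lowest in pool 3, for 13 of 14 genes in both cases. Clec4f, a lectin of these macrophages, had 10.50, 10.27, 9.06 and 9.99. Vsig4, a complement receptor, had 10.21, 9.76, 8.42 and 9.32. Adgre1, which encodes F4/80, had 8.55, 7.98, 6.38 and 7.60. All 14 genes were above the floor in all pools and 6 were in the top 5%. The list means were 9.54, 9.12, 8.05 and 8.75, and the difference of 1.48 between the highest and the lowest became 0.78 without pool 3. B cell genes were highest in pool 2 (8 of 10) and lowest in pool 3 (7 of 10). Igkc, the kappa chain constant region, had 7.29, 8.54, 5.77 and 8.36. The list mean differed by 1.20 between pools, or 0.66 without pool 3.

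Smooth muscle genes were highest in pool 2, in 9 of 10 cases. Acta2, smooth muscle actin, had 6.33, 10.08, 6.36 and 8.54. Myh11, smooth muscle myosin, had 5.26, 8.40, 6.16 and 6.92. Cnn1, calponin, had 3.84, 7.88, 3.84 and 4.93. Pool 2 was more than 1 above the nearest other pool in each. The list mean was 5.01, 7.01, 5.09 and 5.73, and its difference of 2.01 became 0.72 without pool 2. Across the array pool 2 was more than 1 above the nearest other pool in 25 rows (0.0983%), of which 7 were smooth muscle genes. Fcor, a small regulator of Foxo1 known from fat cells, had 4.97, 9.54, 4.64 and 5.29. Of the 8 adipocyte genes 0 had a range over 1, and 3 were above the floor in no pool. The part of fat cells in the Fcor values was not tested.

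**Figure D3:**
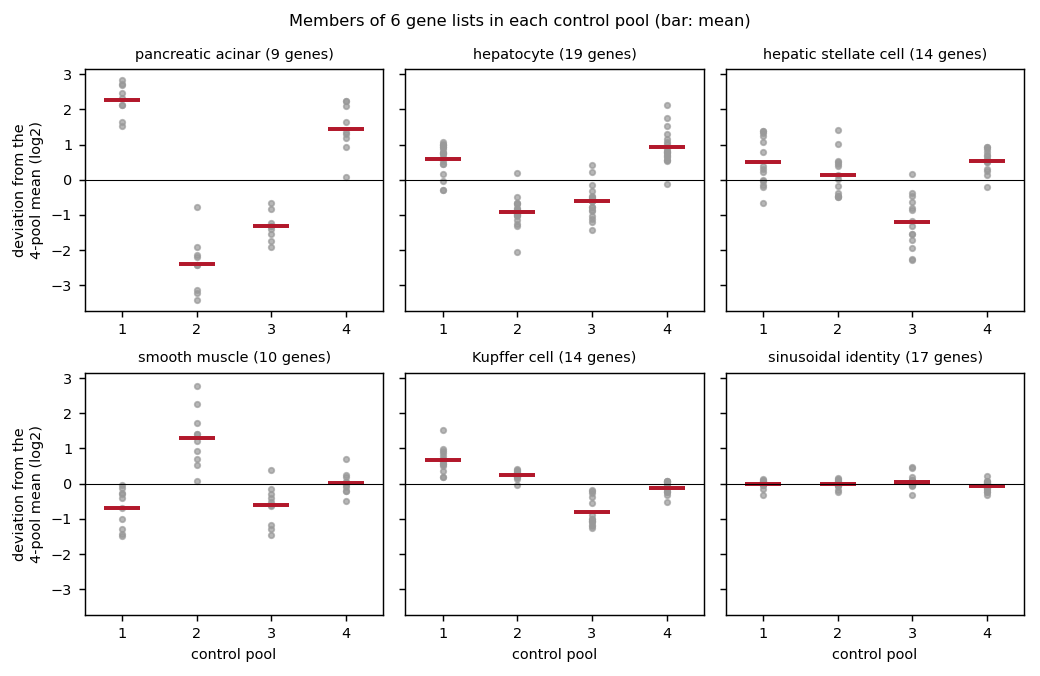
Deviation of each member from its own 4-pool mean (vertical axis, log2) in pools 1 to 4 (horizontal axis) for 5 lists of other cell types and for sinusoidal identity, with points for genes and a bar for the list mean. Acinar and hepatocyte genes are high in pools 1 and 4, stellate and Kupffer genes low in pool 3 and smooth muscle genes high in pool 2, while the mean of sinusoidal identity genes stays between -0.06 and 0.06 in all pools. Most sinusoidal identity genes lie near the top of the distribution, where normalization limits the spread.

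Further cell types differed in how many of their genes were above background. Over all rows 53.2% were above the floor in all pools, and a count near that share does not set a list apart from other rows. Of 8 mast cell and basophil genes 0 were above the floor in any pool. Of 7 erythroid genes 1 was above the floor in all pools, the erythropoietin receptor gene Epor with 6.32, 6.44, 6.51 and 6.42. The β-globin row Hbb-bs had 2.26, 2.85, 2.06 and 2.37. Of 10 cholangiocyte genes 5 were above the floor in all pools, 8 of 10 were lowest in pool 3 and 4 had a range over 1. Krt19, the bile duct keratin, was below the floor in each pool with 3.48, 3.65, 2.74 and 3.61. Krt7, another bile duct keratin, was above it in each with 4.51, 4.54, 3.89 and 4.96. Spp1, osteopontin, was the widest of that list with 7.15, 7.98, 5.92 and 8.08. Of 12 neutrophil and monocyte genes 4 were above the floor in all pools, 8 of 12 were highest in pool 2 and 6 had a range over 1. Ly6g, the antigen of neutrophils, was below the floor in each pool with 2.51, 2.50, 2.67 and 2.57. S100a8, a calcium-binding protein of neutrophils, was above it in each with 4.70, 5.39, 4.15 and 4.43. Krt19 and Ly6g were not alone in this. Below the floor in every pool were 4 of the 10 cholangiocyte and 5 of the 12 neutrophil and monocyte genes. With the floor at the 99th percentile of olfactory receptor rows, 3 of the 10 cholangiocyte and 2 of the 12 neutrophil and monocyte genes were above it in all pools. In the list of T and NK cells 12 of 14 genes were above the floor, but 4 of 14 were above the higher one. Of 9 dendritic cell genes 6, of 9 platelet genes 8, of 8 adipocyte genes 4 and of 8 adrenal cortex genes 2 were above the floor in all pools, the last count being 1 without pool 1 or without pool 2. At the higher floor these counts were 3, 3, 0 and 0. Pf4, a platelet chemokine, had 5.06, 5.38, 4.50 and 5.10. Of 6 Y-linked genes 0 were above the floor in all pools. The exception to low values there was the row of Sry, the testis-determining factor, with 3.97, 3.68, 3.23 and 3.77, near the floor and above it in pools 1 and 4. Without pool 3, with the floor computed anew from the other pools, 1 of the 6 passed. Xist, the RNA of the inactive X chromosome, had 10.23, 9.42, 9.46 and 9.68, and the labels give female mice.

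The genes of the circadian clock set pool 3 apart. The clock works by a loop in which the proteins of Arntl (BMAL1) and Clock activate Per and Cry genes through E-box sequences. The Per and Cry proteins then inhibit the activity of that pair. Transcripts of Arntl and of the Per genes are known to peak at opposite times of day. Per2 had 3.51, 3.51, 7.95 and 3.79, a range of 4.44. Arntl had 8.97, 9.04, 5.23 and 8.91, a range of 3.81. Cry2 had 3.81, 3.60, 7.01 and 4.47. Pool 3 was far above the other pools for Per2 and Cry2 and far below them for Arntl, and the other pools lay within 1 of each other. Cry1 had 4.40, 4.79, 7.44 and 4.70. Per1 had 6.85, 6.87, 9.31 and 6.55. The output gene Dbp, a transcription factor under clock control, had 6.38, 6.04, 9.30 and 7.15. In each of these pool 3 was again the highest. Nr1d1, a repressor of Arntl, did not follow this division, with 9.63, 8.91, 9.95 and 10.45 and the highest value in pool 4. Clock itself was even with 9.76, 9.67, 9.49 and 9.66.

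Of 17 clock genes 10 had a range over 1, against 6.27% of all rows. Pool 3 was the highest pool in 12 of 17, and in 8 of them it was more than 1 above the nearest other pool, against 0.283% of all rows. The list mean was 5.87, 5.81, 7.10 and 6.13, and its difference of 1.29 between the highest and the lowest pool became 0.31 without pool 3. Wee1, a cell cycle kinase gene known to be under clock control in liver, had 3.86, 4.10, 7.11 and 4.35. Zbtb16, a transcriptional repressor that is not in the list, had 4.05, 4.24, 7.02 and 4.04. Both were high in pool 3 as well. The labels give no time of day for the isolation of any pool.

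**Figure D4:**
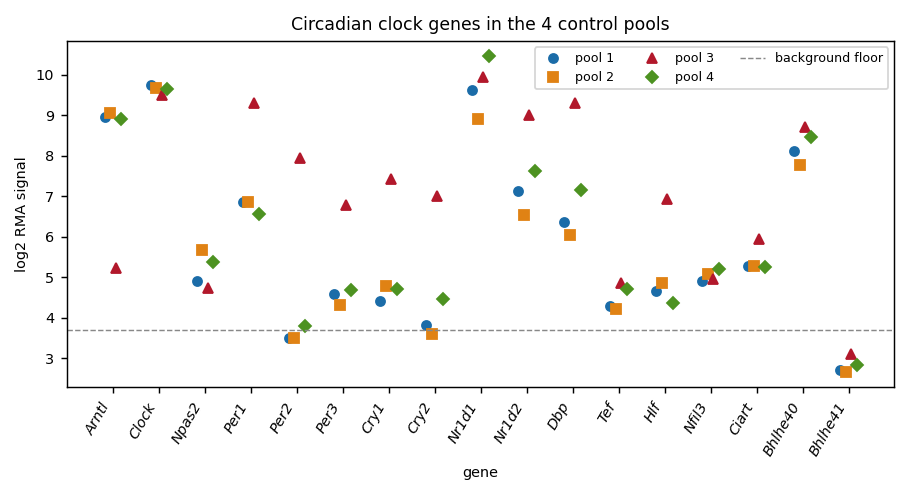
Log2 RMA signal (vertical axis) of the 17 clock genes (horizontal axis) in each of the 4 pools (symbols), with the background floor dashed. Pool 3 stands below the other pools for Arntl and above them for Per1, Per2, Per3, Cry1, Cry2, Dbp, Hlf and Nr1d2, in each case by more than 1.

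The promoters of Per1, Cry1 and Ciart are shown because their E-boxes, the CACGTG letters in capitals, are the sequence through which Arntl and Clock are known to act (RefSeq, GRCm38.p6, 250 bases before to 50 after the start, 5′ to 3′ along the gene). They lie at chr11:69098699-69098998 on the plus strand, chr10:85185005-85185304 on the minus strand and chr3:95882179-95882478 on the minus strand.
Per1 promoter: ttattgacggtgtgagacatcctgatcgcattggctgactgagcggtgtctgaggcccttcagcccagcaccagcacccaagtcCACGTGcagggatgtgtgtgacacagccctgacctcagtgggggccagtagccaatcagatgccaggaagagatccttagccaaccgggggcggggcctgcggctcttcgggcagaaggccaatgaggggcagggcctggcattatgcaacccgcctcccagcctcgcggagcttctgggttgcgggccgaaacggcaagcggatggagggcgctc
Cry1 promoter: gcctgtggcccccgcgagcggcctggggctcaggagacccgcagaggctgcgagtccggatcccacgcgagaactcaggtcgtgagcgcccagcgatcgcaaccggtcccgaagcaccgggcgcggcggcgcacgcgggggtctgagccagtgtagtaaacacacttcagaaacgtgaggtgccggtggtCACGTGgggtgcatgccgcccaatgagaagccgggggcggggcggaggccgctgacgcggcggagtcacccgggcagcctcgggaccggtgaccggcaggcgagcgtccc
Ciart promoter: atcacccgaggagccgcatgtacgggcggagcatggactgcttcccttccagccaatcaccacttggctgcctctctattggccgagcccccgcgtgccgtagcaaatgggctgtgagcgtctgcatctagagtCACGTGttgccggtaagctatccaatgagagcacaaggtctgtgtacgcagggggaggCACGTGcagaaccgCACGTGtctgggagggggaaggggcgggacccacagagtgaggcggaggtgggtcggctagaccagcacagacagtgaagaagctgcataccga
CACGTG, which reads the same on both strands, was in 6 of 20 promoters of 15 clock genes (30.0%) and in 7.15% of all 32851 promoters. The windows of Per2 and Bhlhe40 were not searched. The clock genes with a match were Per1, Cry1, Ciart, Bhlhe41 and Tef, and a match is a description of the letters in this window. Ciart, a clock repressor with 3 matches, had 5.27, 5.28, 5.94 and 5.25 and was also highest in pool 3. Bhlhe41, another repressor, was below the floor in every pool with 2.70, 2.67, 3.12 and 2.83. Per3, Cry2, Dbp, Hlf and Nr1d2, which were high in pool 3, had no match in their windows.

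Genes of the immediate early and dissociation response, which the isolation of cells is known to induce, were highest in pool 1. Fos, an immediate early transcription factor, had 10.35, 9.71, 8.90 and 8.69. Egr1, another, had 9.49, 8.68, 7.93 and 7.80. The heat shock gene Hspa1a had 11.75, 10.98, 10.67 and 10.52. Of 19 genes 15 were highest in pool 1 and 12 had a range over 1. The list mean was 9.08, 8.55, 8.17 and 8.24, a difference of 0.91 between the highest and the lowest that became 0.38 without pool 1. Dusp1, a phosphatase gene of the same response, ranked 47 of all rows with 12.10, 11.86, 11.92 and 11.84. Proliferation genes were lowest in pool 1 in 14 of 18 cases, and 0 of the 18 were in the top 5%. Mki67, the proliferation antigen, had 6.13, 7.14, 7.11 and 7.45. Pool 1 also had the lowest value of Cyp26b1, an enzyme that degrades retinoic acid, with 7.85, 9.72, 10.49 and 9.06.

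**Figure D5:**
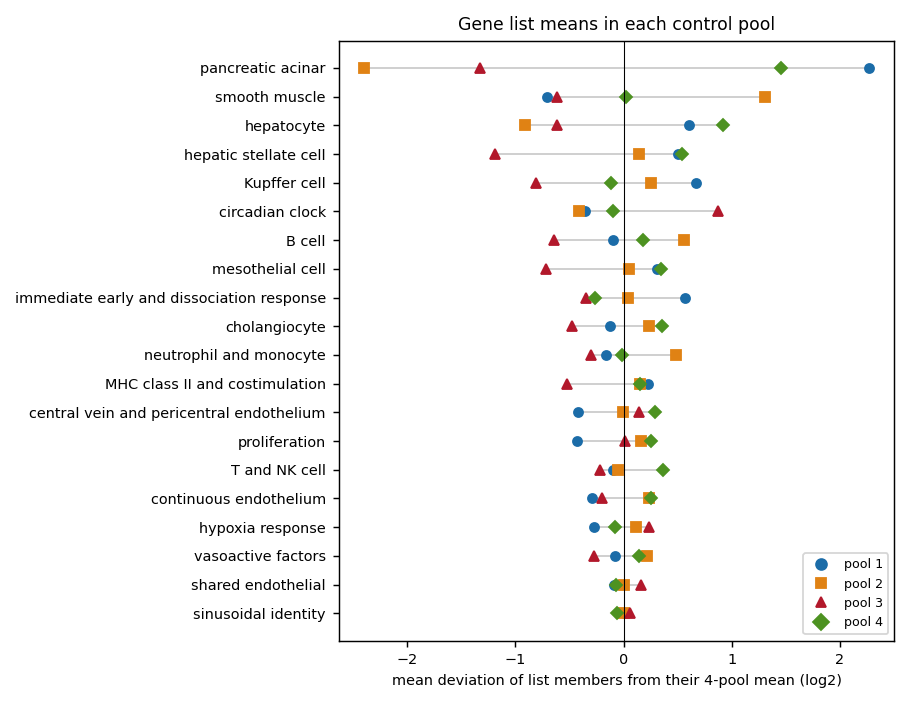
Mean deviation of list members from their 4-pool means (horizontal axis, log2) in each pool (symbols) for the 18 lists with the largest difference between pools and, at the bottom, for shared endothelial and sinusoidal identity genes. The difference reaches 4.67 for acinar, 2.01 for smooth muscle, 1.83 for hepatocyte and 1.73 for stellate cell genes, against 0.25 and 0.12 for the endothelial lists. Most genes of these endothelial lists lie near the top of the distribution, where normalization limits the spread.

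Genes in common use as internal standards differed in spread between these pools. Of 13 measured standards 11 were above the floor in all pools. Actb, cytoplasmic actin, had 11.38, 11.54, 10.96 and 11.65. Hprt, a purine salvage enzyme, had 8.92, 9.04, 8.61 and 8.91. The most even standard was B2m with an SD of 0.04, and next to it Gusb, a lysosomal glucuronidase, had 8.40, 8.48, 8.49 and 8.58, an SD of 0.07.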

How the data were processed

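RNA of 4 control LSEC pools was measured on Affymetrix mouse gene arrays. The authors summarized the probes with a custom chip definition file (version 22, genes by Entrez ID) and deposited log2 values after RMA, which includes background correction and quantile normalization. The RMA software version is not given in the sources used here. All 8 sample columns were assigned to a sample (0 columns without one), and the 4 mutant columns were not used. The table holds no columns of the authors' own comparisons.

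From the deposited log2 values, control means, SDs, ranks and ranges were computed in Python 3.11.15 with pandas 2.3.3, numpy 2.4.6 and scipy 1.17.1, and figures were drawn with matplotlib 3.10.9. Rows were named through RefSeq gene IDs (25237 rows) or else the platform annotation (32 rows), and 159 rows stayed unnamed. With a single group there was no comparison between groups, so no test between groups was run and no p-value is given. Dixon's criterion was applied within the group to find pools that stand apart. The precision is limited by the number of arrays, 4.

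Levels were read against 52 gene lists, with 676 of 687 listed genes measured. The markers and lists were chosen with earlier results of these data known. Genes were named by a rule: the 5 markers, Ctnnb1, Xist and Mcam, the 20 highest and the 20 widest rows, up to 4 highest and 2 widest members of each list, the 4 rows farthest above and below the others in each pool, and the 10 steadiest rows of the top decile. That rule gave 305 genes, a few of which are not reported here, and 31 more, mostly members of the lists named for their role, were chosen after their values were seen. Rows with 1 pool or a pair of pools over 1 from the others, and the E-box search, were chosen after seeing the data. The alternatives tried were other background floors, ranks over other rows or by the median, array centring, quantile normalization of the control arrays alone, list medians and leaving out each pool, with the floor computed anew. The scripts were tested on simulated data. Promoter and microRNA sequences are from RefSeq (GRCm38.p6), and the build behind the array definition was not needed.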

Additional observations from a re-analysis of the deposited data

Results flagged for a closer look

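Of 386 values examined, 334 named genes and 52 list means, 28 had 1 pool so far from the nearest other pool, relative to the range of the 4, that it exceeded Dixon's 95% critical value for 4 samples. Some of the genes were named because 1 pool was far from the others, so this count is a description and no test of them. Chance flags about 1 in 20 groups of 4, and over all 15694 rows above the floor in at least 1 pool 941 (6.00%) were flagged. The distant pool of the 941 rows was pool 3 in 526, pool 1 in 181, pool 4 in 133 and pool 2 in 101. Of the 26 named genes flagged, it was pool 3 in 18, pool 2 in 5, pool 1 in 2 and pool 4 in 1.

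The clock genes and genes known to be under clock control made up a group of these, all with pool 3 as the distant pool. Arntl was low there at 5.23, and Per2 at 7.95, Per1 at 9.31, Cry1 at 7.44, Ciart at 5.94 and Wee1 at 7.11 were high. Zbtb16 was also high in pool 3 at 7.02.

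Genes of class II antigen presentation were low in pool 3, with Cd74 at 8.66, H2-Aa at 6.55, H2-Ab1 at 8.02 and H2-Eb1 at 6.67. The mean of the class II and costimulation list was 5.83 in that pool. Isg15, a gene of the interferon response, was low in pool 3 as well at 4.90.

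Further genes with pool 3 as the distant pool were Lfng (9.61), the collagen hydroxylase gene P4ha1 (9.36) and the lipid droplet gene Plin1 (4.54), which were high, and Gucy1a1 (3.83), the lactate transporter gene Slc16a1 (6.17) and Ehd3 (12.92), which were low. In pool 2, Fcor (9.54), the amine oxidase gene Aoc3 (4.57), Fcgrt (12.29), Heyl (4.28) and Kdr (12.67) were high. In pool 1, Clec4g (12.92) and Rn18s-rs5 (13.41) were high, and in pool 4 Ednrb (9.998).

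The mean of the mast cell and basophil list was highest in pool 4 at 2.64, below the floor of 3.69. Several flagged distances were small on the log2 scale, with ranges of 0.05 for Clec4g, 0.07 for Kdr, 0.06 for Ehd3 and 0.00 for Rn18s-rs5.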

How the results depend on the processing

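Pool 3 was the most distant pool by either measure and in each setting that kept it. The number of rows above background was 13535, with 10479, 15055, 11816, 14632 and 13490 under the other settings and from 13520 to 14057 without 1 pool. Rows with a range over 1 numbered 1494, with 1051 to 1595 under other settings and 735 to 1216 without 1 pool.

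Clec4g stood at percentile 99.984 by the median of the pools and Kdr at 99.941 among protein-coding rows. Leaving out 1 pool gave 99.984 to 99.988 for Clec4g and 99.945 to 99.949 for Kdr. The difference between pools in the median of the sinusoidal identity genes was 0.051, against 0.117 in their mean. Without 1 pool, the difference in the list mean ranged from 0.0558 to 0.117 for sinusoidal identity, 0.0930 to 0.247 for shared endothelial, 0.38 to 0.91 for immediate early, 0.31 to 1.29 for clock, 0.78 to 1.48 for Kupffer, 0.40 to 1.73 for stellate, 0.72 to 2.01 for smooth muscle and 0.66 to 1.20 for B cell genes. The cause was not tested.

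With the floor at the 99th percentile of olfactory receptor rows, genes above it numbered 6 of 20 for brain endothelium, 5 of 10 for smooth muscle, 3 of 10 for cholangiocytes, 4 of 14 for T and NK cells, 2 of 12 for neutrophils and monocytes, 3 of 9 for dendritic cells, 3 of 9 for platelets, 2 of 7 for mesothelium and 0 for adrenal cortex and adipocytes.

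The values are log2 signals of 4 arrays, so the precision is limited by their number, low signals are compressed toward the background, and ranks mix probe affinity with transcript level. Quantile normalization removed any difference in total signal. No paired analysis was possible because a single group was described.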

Other observations

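Some of the steadiest rows of the top decile were genes of metabolism and signaling that no list held. Cyp4b1, a cytochrome of the CYP4 family, had 12.05, 12.05, 12.08 and 12.06 in pools 1, 2, 3 and 4. Dpp4, the peptidase that degrades incretins, had 11.74, 11.72, 11.73 and 11.70. Sirt2, a deacetylase, had 10.53, 10.52, 10.49 and 10.50. Rxra, the partner of many nuclear receptors, had 8.76, 8.77, 8.73 and 8.78. In contrast, Eln, the gene of elastin, had 4.07, 6.96, 5.02 and 6.27 and was low in pool 1. Fcer2a, the low-affinity IgE receptor known from B cells, had 4.58, 7.08, 5.24 and 4.23 and was high in pool 2. B cell genes were highest in pool 2 too, and their part in the Fcer2a values was not tested.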
